A study of Mnemiopsis leidyi with 50 samples.

Results

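The models described here are the 150 transcripts of the ctenophore (comb jelly) *Mnemiopsis leidyi* whose level peaked most sharply at 6.5–8 h post fertilization (hpf), out of 16548 protein models (ML2.2 set) counted in single embryos. They were chosen on their measured course. Levels were expressed as CPM (counts per 1000000 counts of the embryo) and averaged over embryos in 8 windows (1–3, 4–6, 6.5–8, 8.5–10, 11–12, 13–14, 15–17 and 18–20 hpf). Of the 614 models that were highest at 6.5–8 hpf, 305 reached a mean of 20 CPM there (4.96% of the 6148 models with 20 CPM in some window), and the 150 with the largest share of the sum of the 8 window means were kept. The peak itself is therefore a description and carries no test.

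The samples were whole, untreated single embryos spawned in the laboratory by adults collected from the wild, and the groups compared are ages. RNA was counted with CEL-Seq, which barcodes the RNA of each embryo and reads it near its 3′ end, so that CPM was not divided by transcript length. Of 50 embryos at 26 time points from 0 to 20 hpf, 46 held at least 200000 counts and were used (3, 4, 4, 3, 2, 8, 11 and 11 in the 8 windows). Up to 12 hpf each time point was 1 embryo, so that the spread within a window includes any change between its hours, and a whole embryo cannot tell more RNA per cell from more cells of a type.

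Totals of the embryos used ranged from 278730 to 2079694 counts (median 868384), and the 4 embryos at 6.5, 7, 7.5 and 8 hpf held 925981, 507616, 923820 and 519768. The libraries fell into 2 groups by the share of reads that could not be assigned to 1 model. A first group with more than 2.5% of such reads held 18 embryos (all up to 12 hpf, 1 of 13 hpf and 1 of 20 hpf), and a second held the other 28, all at 13–20 hpf. Apart from those 2 embryos, library group and age cannot be told apart.

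Early animal embryos run on transcripts laid down in the egg, which are cleared while the embryo starts its own transcription. In *M. leidyi* stereotyped cleavage divisions are followed by gastrulation, and the comb rows, pharynx, apical sense organ and paired tentacles form afterwards. The tentacles carry colloblasts, the adhesive prey-catching cells of ctenophores. The 6.5–8 hpf window precedes the visible thickening of the tentacle epithelium. Most of the 150 models are known here only by identifier, and no role is given to those.

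Together the 150 models took 30225 ± 1195 CPM (SD, n = 4 embryos) at 6.5–8 hpf, or 3.02% of the counts. Their sum was 28879 CPM in the lowest of these embryos and 31788 CPM in the highest. It was 17139 ± 1322 CPM at 1–3 hpf (n = 3), 21638 ± 4243 CPM at 4–6 hpf (n = 4), 21905 ± 3242 CPM at 8.5–10 hpf (n = 3) and 16448 ± 706 CPM at 11–12 hpf (n = 2). It then ran at 13273 ± 692 CPM at 13–14 hpf (n = 8), 11734 ± 697 CPM at 15–17 hpf (n = 11) and 11424 ± 896 CPM at 18–20 hpf (n = 11). The 10 models with the highest level held 41.8% of the summed CPM of the window. At 13 hpf the embryo of the first library group stood at 14629 CPM and the 3 of the second at 12832–13687 CPM. At 20 hpf the values were 12814 CPM and 9993–11157 CPM, so that the single first-group embryo was the highest at both hours. A part of the library group in the lower late sums was not tested.

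**Figure D1:**
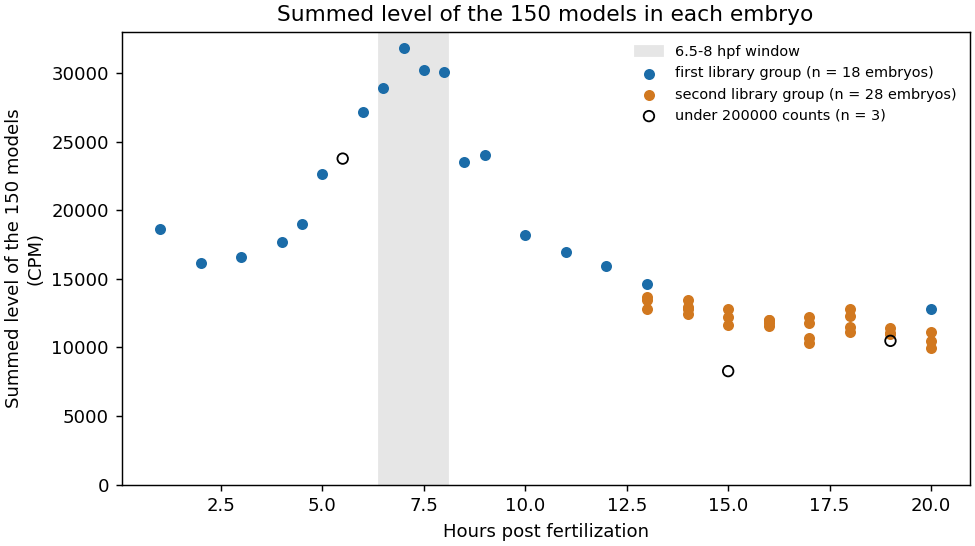
Summed level of the 150 models in each embryo (CPM) against age, with 1 point per embryo, colored by library group; open circles are embryos under 200000 counts, which the choice of models did not use (that at 0 hpf is not drawn). The 4 embryos of the 6.5–8 hpf window (gray band) lie between 28879 and 31788 CPM, above all others, and the sum declines on both sides.

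The peak was narrow for a few models and shallow for most. A model with the same level in all 8 windows would have a share of 12.5% at 6.5–8 hpf, and the shares ran from 18.2% to 50.0% with a median of 20.9%. Only 34 models had a share of at least 25%, 17 of at least 30% and 6 of at least 40%. The 6.5–8 hpf mean was at least 2 times the next highest window in 9 models and at least 1.5 times in 24, but under 1.2 times in 88. The next highest window was 8.5–10 hpf for 54 models, 4–6 hpf for 42, 1–3 hpf for 18, 13–14 hpf for 17 and 11–12 hpf for 15, and it lay at 15–17 or 18–20 hpf for 2 each. At the edge of the choice the shares were continuous. ML09022a, ML077641a and ML32331a lay just inside with 18.3%, 18.2% and 18.2%, and ML004938a, ML13205a and ML009118a just outside with 18.2%, 18.1% and 18.1%.

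Levels at the peak ran from 20.1 to 2248 CPM (median 83.9), and 66 models reached 100 CPM. The 4 embryos of the window varied around their mean by a median of 29.2% (SD as percent of the mean, 2.35–124%), from 51 to 5859 counts per model over the 4 embryos together (median 230). Within the window the highest embryo was that at 7.5 hpf for 57 models, at 7 hpf for 38, at 6.5 hpf for 30 and at 8 hpf for 25. For 102 of the 150 the highest of all 46 embryos lay in the window. In 17 it was instead the embryo at 6 hpf, and in 20 an embryo at 13–20 hpf.

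Complete separation from every other age was rare. In 4 models, ML460823a, ML17994a, ML174746a and ML08578a, named after their values were seen, the lowest of the 4 embryos lay above all other 42 embryos; these are the only such models, 0.0651% of the 6148 that reached 20 CPM in some window. Within the first library group ML225220a, ML043311a and ML07002a joined them (0.114% of the 6148). ML08578a shows that separation need not mean a strong peak. Its 4 embryos stood at 154.4, 153.7, 161.3 and 153.9 CPM, while the embryos at 6 and 9 hpf stood at 145.6 and 153.04 CPM and the late embryos (13–20 hpf) between 38.7 and 117 CPM.

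Sorted by what was present before and after the window, the 150 models fell into 3 groups. In 7 models both the 1–3 hpf mean and the mean of the 3 windows from 13 to 20 hpf were under 10% of the 6.5–8 hpf mean; these are called transient here. In 37 models only the 1–3 hpf mean was under 10%, so that they came on and stayed. The other 106 had at least 10% on both sides.

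**Figure D2:**
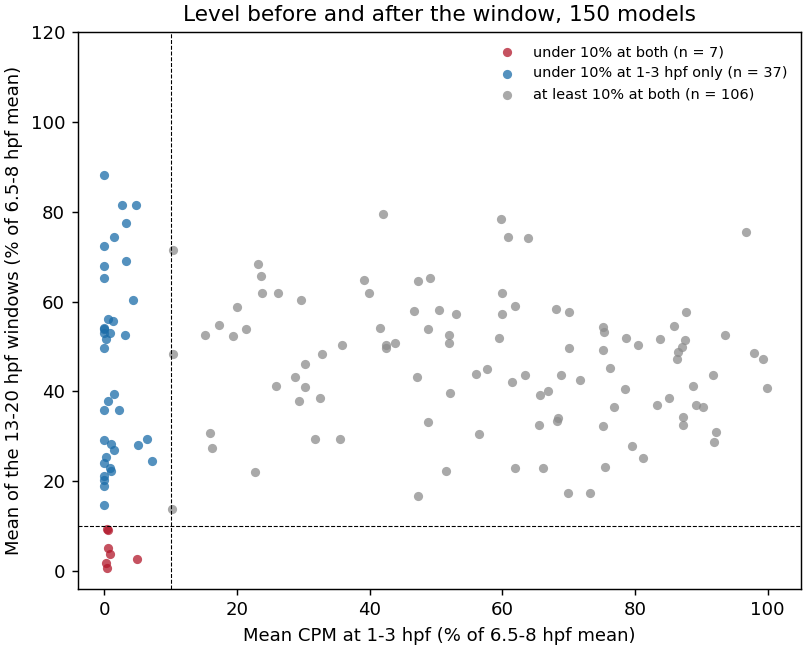
Each point is 1 of the 150 models, placed by its mean CPM at 1–3 hpf (horizontal) and the mean of its 13–20 hpf windows (vertical), both as percent of its 6.5–8 hpf mean; dashed lines mark 10%. The 7 transient models sit in the lower left corner, 37 lie along the left edge, and 106 are spread over the rest.

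The 7 transient models had a median of 0.68 CPM at 1–3 hpf. All were near silent in these hours except ML055014a, which held 16 of 864377 counts at 3 hpf. The median was 64.5 CPM at 4–6 hpf, 138 CPM at 6.5–8 hpf, 41.2 CPM at 8.5–10 hpf and 12.5 CPM at 11–12 hpf. From 13–14 to 18–20 hpf it stood between 5.92 and 2.33 CPM. They hold the 5 largest shares of the 150, and their median share was 47.5%. All 7 lack an annotation in the sources used here.

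ML17994a had 0, 0 and 2.3 CPM at 1, 2 and 3 hpf and 36.1, 67.1, 122 and 83.7 CPM at 4, 4.5, 5 and 6 hpf. Its 4 peak embryos stood at 249, 181, 225 and 179 CPM (209 ± 34.5, SD, n = 4). It held 135, 97.3 and 53.7 CPM at 8.5, 9 and 10 hpf and 83.4 and 17.4 CPM at 11 and 12 hpf. The transcript was then lost: it was 21.7 CPM in the first-group embryo at 13 hpf, had a median of 0.42 CPM over the 8 embryos at 13–14 hpf and no count in any of the 11 embryos at 18–20 hpf, where a count of 0 allows up to 0.44 CPM (3 counts over the 11 embryos).

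ML202616a reached the highest level of the 7. It had at most 1.2 CPM at 1–3 hpf and climbed through 3.6, 22.0, 60.4 and 129 CPM at 4, 4.5, 5 and 6 hpf. The window embryos stood at 310, 418, 246 and 291 CPM (316 ± 72.9, SD, n = 4). The level held at 389 and 329 CPM at 8.5 and 9 hpf and then dropped to 49.5, 35.0 and 8.7 CPM at 10, 11 and 12 hpf. Its plateau thus ran past the window, and the 8.5 and 9 hpf embryos overlapped with the window's.

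ML05793a, with the largest share (50.0%), had 92.8 CPM at 6 hpf, 87.5, 173, 101 and 156 CPM in the window and 61.5 CPM at 8.5 hpf. It stayed detectable, with medians of 6.36 CPM at 13–14 hpf and 18.9 CPM at 18–20 hpf. ML460823a had the same share at a lower level, with 31.3, 31.5, 40.1 and 28.9 CPM in the window, 19.5 CPM at 6 hpf and 21.4 CPM at 9 hpf. Both models were at or under 1.2 CPM in each embryo at 1–3 hpf.

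ML055014a and the other two transient models came on earlier. ML055014a stood at 139, 117, 139 and 118 CPM from 4 to 6 hpf, at 200.9, 167.4 and 151.5 CPM at 6.5, 7 and 7.5 hpf, and at 32.7 CPM at 8 hpf. Its fall thus lay inside the window, between the embryos at 7.5 and 8 hpf. ML09651a was as high at 6 hpf (216 CPM) as in the window (209.5, 112.3, 161.3 and 113.5 CPM), and ML36921a had 87.0 and 86.0 CPM at 5 and 6 hpf against 55.1, 112.3, 67.1 and 51.9 CPM. The last pair, outside the rule for named models, is given here to complete the group.

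**Figure D3:**
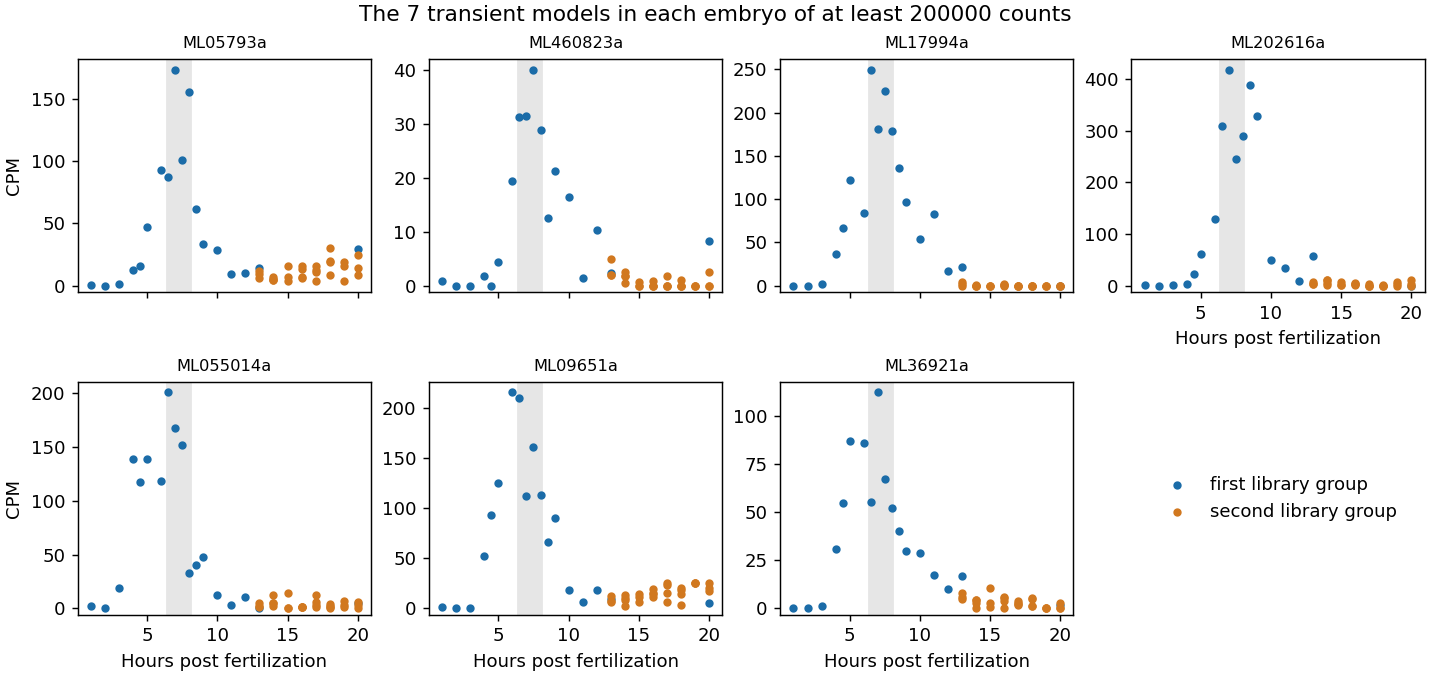
CPM of the 7 transient models against age, 1 point per embryo of at least 200000 counts, colored by library group, with the 6.5–8 hpf window in gray and a separate linear scale for each model. ML17994a and ML460823a have their 4 highest embryos in the window, while ML202616a stays high at 8.5 and 9 hpf and ML055014a falls between 7.5 and 8 hpf.

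The 37 models that came on and stayed had a median of 0.77 CPM at 1–3 hpf, 19.8 CPM at 4–6 hpf and 62.3 CPM at 6.5–8 hpf. Relative to its own peak the median model stood at 40.6% at 4–6 hpf, 76.8% at 8.5–10 hpf, 47.9% at 11–12 hpf and 49.6% at 18–20 hpf. Of the 44 models under 10% at 1–3 hpf (these 37 and the 7 transient ones), 15 had no count in the 3 embryos at 1–3 hpf, which allows up to 1.24 CPM (3 counts over the 3 embryos). The first embryo to reach 50% of the peak mean was that at 4 hpf for 2 of the 44, 4.5 hpf for 7, 5 hpf for 8, 6 hpf for 18, 6.5 hpf for 8 and 7 hpf for 1. The embryo at 6 hpf was thus the most frequent first. The embryo at 5.5 hpf was left out, however, so that the step from 5 to 6 hpf was longer than those just before and after it. How much of the count at 6 hpf came from this longer step was not tested.

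ML216348a had the largest share of this group (42.2%). It had no count up to 4 hpf, stood at 9.4, 20.6 and 49.3 CPM at 4.5, 5 and 6 hpf, and at 90.7, 104, 55.2 and 42.3 CPM in the window. Late embryos held 1.71–35.7 CPM. ML225220a was lower, with 28.1, 39.4, 13.0 and 28.9 CPM in the window against at most 8.0 CPM before it and 12.5 CPM or less from 8.5 to 12 hpf. Its late embryos reached 16.6 CPM, above the lowest embryo of the window.

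In the other 106 models the transcript was already present at 1–3 hpf. The 1–3 hpf mean came up to 99.96% of the 6.5–8 hpf mean, so that some of these models hardly exceeded their early level. Their median was 56.0 CPM at 1–3 hpf, 69.9 CPM at 4–6 hpf, 100.6 CPM at 6.5–8 hpf, 69.4 CPM at 8.5–10 hpf and 48.0 CPM at 11–12 hpf, and it ended at 38.1 CPM at 18–20 hpf. Their median share was 20.1%. In 80 of them an embryo at 1–3 hpf already held 50% of the peak mean. The last hour at which a model held 50% of its peak mean was taken from the mean over the embryos of each hour. Of all 150 models, it lay at 13 hpf or later for 95, at 11–12 hpf for 30, at 8.5–10 hpf for 19 and by 8 hpf for 6. Single later embryos can lie above that level.

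**Figure D4:**
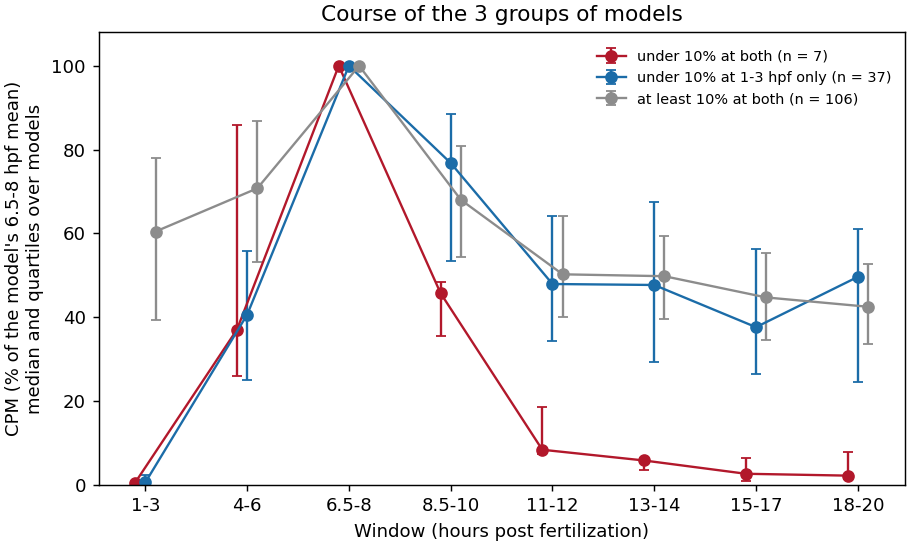
Median level of the 3 groups of models in each window, as percent of each model's own 6.5–8 hpf mean, with bars from the lower to the upper quartile over models (not an error over embryos). The transient models drop to 8.35% at 11–12 hpf, while the other groups stand at 47.9% and 50.2% there.

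All of the 10 most abundant models belonged to these 106. ML03922a was the highest, and the most scattered of the 10. It fell from 2078 to 1574 and 1059 CPM at 1, 2 and 3 hpf, rose to 2137 CPM at 6 hpf, and stood at 1464, 2591, 1539 and 3398 CPM in the window (2248 ± 923, SD, n = 4). It then declined to 734 CPM at 12 hpf and to a median of 278 CPM at 18–20 hpf. Its window embryos overlapped with those at 1, 2, 5, 6 and 8.5 hpf.

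ML33426a had a broad and low rise. It stood at 1168, 1347 and 1322 CPM at 1–3 hpf, at 1971, 1875, 1625 and 2009 CPM in the window and at 1244 CPM at 12 hpf, and had a median of 649 CPM at 18–20 hpf. ML210018a and ML013518a stood at 1398 ± 123 and 1241 ± 275 CPM in the window (SD, n = 4 each) and at 83.3% and 75.1% of that at 1–3 hpf. ML07306a and ML16908a stood at 967 ± 205 and 948 ± 95.8 CPM (SD, n = 4 each).

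ML043311a shows how a share can hide high late values. It stood at 1544, 1198, 894 and 929 CPM in the window and at 235 and 266 CPM at 10 and 11 hpf. The 13–14 hpf embryos had a median of 938 CPM, and the highest of them held 2220 counts of 1659549. A second-group embryo at 18 hpf reached more than 1574 CPM. The lowest at 13–14 hpf, 342 CPM, was the first-group embryo at 13 hpf, but a second-group embryo at 14 hpf was also low (411 counts of 1188526). A part of the library group in these late values was not tested. ML07002a also stayed high. It rose from 182, 194 and 133 CPM at 1–3 hpf to 586, 344, 591 and 602 CPM at 4–6 hpf, stood at 712, 753, 831 and 643 CPM in the window, and had a median of 511 CPM at 18–20 hpf.

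The 4 window embryos did not always share the peak. ML04421a, seventh by share, had 61.6 CPM at 8 hpf but 4.3, 9.8 and 10.8 CPM at 6.5, 7 and 7.5 hpf, and 13.2 CPM or less in every other embryo. ML077641a, at the edge of the choice, had 41.4, 32.5 and 38.5 CPM at 7, 7.5 and 8 hpf but 10.8 CPM at 6.5 hpf, below each of its 3 embryos at 1–3 hpf (27.4–32.4 CPM).

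Of the study's candidate genes few were among the 150. The study chose candidates by the comb jellies that have or lack the gene, not from these levels. Both kinds were absent from *Beroe*, which has no tentacles, and colloblast candidates also from *Haeckelia*, whose tentacles carry no colloblasts. Only candidates listed with an InterProScan match, which may be no more than predicted disorder, were used, and they are a part of the study's sets. Of the 161 such colloblast candidates, 11 had at least 20 CPM at 6.5–8 hpf and 1 was among the 150 (9.09%). Of the 144 such tentacle candidates, 14 had that level and 2 were among the 150 (14.3%), beside 3.89% of all 3859 models with that level. No model of the study's 4 co-expression clusters was among the 150. Only 3 models of 1 colloblast cluster and 1 model of 1 tentacle cluster had that level, and 0 of the other clusters. The study also listed 13 models with a toxin match from a tentacle cell type other than the colloblasts. Of these 3 had that level and 0 were among the 150. With so few models at that level, their absence says little.

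ML148940a, named MlPRD10a, encodes a homeobox protein of the paired class, a family of DNA-binding transcription factors, and is a tentacle candidate. It had 0, 0 and 1.2 CPM at 1, 2 and 3 hpf, 39.7, 51.4 and 42.7 CPM at 4, 4.5 and 5 hpf, and 157 CPM at 6 hpf. In the window it stood at 154, 138, 123 and 106 CPM, and after it at 85.3, 77.1 and 76.4 CPM (8.5, 9 and 10 hpf). Late embryos held at least 33.6 CPM. The highest embryo was thus that at 6 hpf, just before the window, and the gene remained expressed.

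ML03443a, the colloblast candidate, matched only a prediction of disordered protein. It came on at the same time, with at most 1.7 CPM at 1–3 hpf and 55.9, 58.7, 81.1 and 86.0 CPM at 4–6 hpf. Its window embryos were uneven at 95.03, 283.7, 106.1 and 196.2 CPM, and late embryos held 57.8–187 CPM. ML005329a, a tentacle candidate with a zinc finger of the C2H2 type, a fold that often binds DNA, had 25.9, 17.7, 53.0 and 17.3 CPM in the window. Its embryo at 6 hpf held 40.1 CPM and its 13–14 hpf embryos 11.8–47.5 CPM, so its peak did not stand out from the spread between embryos.

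**Figure D5:**
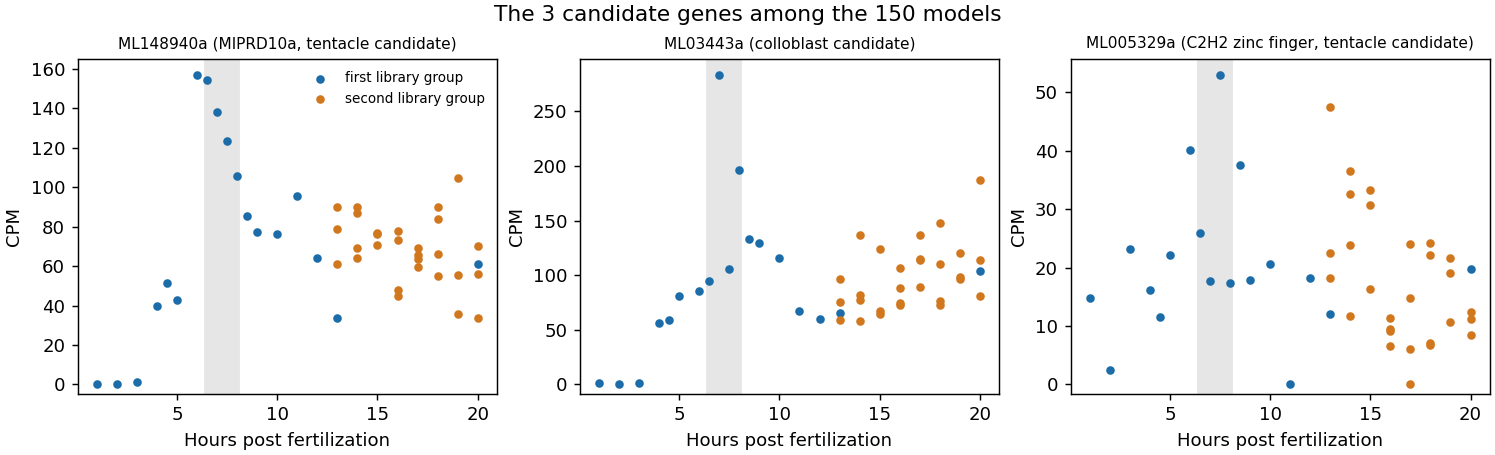
CPM of the 3 candidate genes among the 150 models against age, 1 point per embryo of at least 200000 counts, colored by library group, with the 6.5–8 hpf window in gray. MlPRD10a is highest at 6 and 6.5 hpf (157 and 154 CPM), ML03443a at 7 hpf (284 CPM), and ML005329a shows late embryos as high as those of the window.

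Whether the models were already rising before their peak was asked by comparing 4–6 hpf (n = 4) with 1–3 hpf (n = 3). The choice used the means of these windows and of those compared further on: each had to lie under the peak, and low ones raise the share. It did not use the difference between them, but a course chosen for its peak can be expected to rise toward it and fall away from it, so the counts are descriptions of the chosen models and support nothing beyond the choice. The 155 other models that were highest at 6.5–8 hpf with 20 CPM there, which have the peak but a smaller share, are given beside them. Of the 150 models 49 rose and none fell with edgeR's quasi-likelihood test (Benjamini-Hochberg adjusted over 11264 models), where 5.97% of all models tested rose and 1.86% fell. Among the 6148 models that reached 20 CPM in some window 9.19% rose and 2.94% fell, and of the 155 other models with the same peak window 2 rose (1.29%) and 0 fell. Over the 150 the log2 fold change had a median of 0.67, against 0.11 over all models tested, and it was above 0 in 130 of the 150. At an unadjusted p under 0.05 in the same fit, 46.7% of the 150 were up and 0.667% down, beside 14% and 5.51% of all models and 13.5% and 0% of the 155. With scaling by library size alone the medians were 0.51 and 0.

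The models that rose were mostly those near silent at first: 32 of the 37 that came on and stayed, 6 of the 7 transient ones and 11 of the 106 others. A low 1–3 hpf level defined the first 2 of these groups, so the difference between groups is no finding. MlPRD10a rose, with 1 count at 1–3 hpf against 237 at 4–6 hpf, a ratio of pooled CPM of 187 (95% exact counting interval 33.3 to 7427; adjusted p = 5.91e-11 with edgeR). ML03443a rose as well, with 3 counts against 217 and a ratio of 57.2 (19.3 to 279; adjusted p = 5.91e-11 with edgeR). These p-values use the spread over the embryos of all windows. With only the embryos of the 2 windows, adjusted p with edgeR was 0.000391 for MlPRD10a and 4.25e-05 for ML03443a. The 13 models that rose from no count at 1–3 hpf had 4–6 hpf means 2.67 to 83.1 times a floor of 3 counts over the 3 embryos. These folds leave out the counting error of the 4–6 hpf mean. For the lowest and the highest of them the lower limit of the 95% exact counting interval was 1.56 and 66.0. For the 20 that rose from more than 3 counts the log2 fold change was 0.94–4.61 with a median of 2.09. Among them ML07002a rose to 3.10 times its earlier pooled CPM (2.77 to 3.46; adjusted p = 8.57e-07 with edgeR), and ML005221a by 1.10 on the log2 scale (SE 0.36, adjusted p = 0.0485 with edgeR), from 566 CPM at 1–3 hpf to 1069 CPM at 4–6 hpf.

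After the peak, 11–12 hpf (n = 2) was compared with 8.5–10 hpf (n = 3), all of the first library group. The choice used both means, and a fall away from the peak can be expected from it, so these counts too only describe the chosen models. Of the 150 models 1 fell and none rose (edgeR), beside 0.257% and 1.34% of all models tested and 0.455% and 2.36% of those with 20 CPM in some window. Of the 155 other models with the same peak window 0 fell and 0 rose. The median log2 fold change was −0.37 over the 150, −0.06 over the 155 and 0.06 over all models. At an unadjusted p under 0.05 in the same fit, 16.7% of the 150 were down and 0.667% up, beside 4.37% and 8.03% of all models and 1.29% each of the 155. The model that fell was the transient ML202616a, with a log2 fold change of −3.54 (SE 0.99, adjusted p = 0.0475 with edgeR). With DESeq2 it was −3.35 and did not pass (adjusted p = 0.116). Nor did it pass in edgeR without the embryo at 12 hpf (−2.77, adjusted p = 0.402), 8.5 hpf (−3.06), 9 hpf (−3.36) or 11 hpf (−4.88), although the fold stayed large. Without that at 10 hpf 3 of the 150 fell.

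Late in the series 18–20 hpf was compared with 13–14 hpf (n = 11 and 8). Both means entered the share by which the models were chosen, so here as well the counts are descriptions. Of the 150 models 7 fell (4.67%) and 2 rose (1.33%) with edgeR, beside 1.35% and 2.68% of all models tested and 2.15% and 4.03% of those with 20 CPM in some window. Of the 155 other models with the same peak window 3 fell (1.94%) and 0 rose. The median log2 fold change was −0.16, and −0.04 over all models. The 7 that fell were ML015751a, ML05008a, ML013510a, ML03922a, ML24144a, ML167041a and ML216918a, of which all but ML015751a, ML05008a and ML03922a were named after their values were seen.

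ML015751a was one of the 10 most abundant models and the steadiest of them in the window, at 963, 938, 920 and 912 CPM. It stood at 253–377 CPM (median 291) at 13–14 hpf and at 80.3–287 CPM (median 115) at 18–20 hpf. Its log2 fold change was −1.20 (SE 0.19, adjusted p = 9.14e-06 with edgeR). The highest late value, 287 CPM, was that of the first-group embryo at 20 hpf, while the other 10 embryos at 18–20 hpf lay below all 8 at 13–14 hpf. ML05008a stood at 36.5–65.1 CPM at 13–14 hpf and at 3.59–26.4 CPM at 18–20 hpf, without overlap (log2 fold change −1.65, SE 0.29, adjusted p = 6.98e-05 with edgeR). ML03922a went on declining, from 369–675 to 175–366 CPM (log2 fold change −0.90, SE 0.19, adjusted p = 0.00143 with edgeR).

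The 2 models that rose did so from low levels. ML05793a, the transient model with the largest share, went from 4.21–14.5 CPM (median 6.36) to 3.59–30.3 CPM (median 18.9), with overlap between the windows. Its log2 fold change was 1.29 (SE 0.37, adjusted p = 0.0322 with edgeR), and adjusted p was 0.0559 with limma voom. It did not pass without replicate 4 of 13 hpf, 1, 3 or 4 of 14 hpf, 4 of 18 hpf or 1 of 20 hpf (adjusted p = 0.0571–0.0744 with edgeR). ML007330a went from 4.82–35.3 CPM (median 19.2) to 9.27–190 CPM (median 32.6), with a log2 fold change of 1.29 (SE 0.40, adjusted p = 0.0495 with edgeR). The 190 CPM came from the first-group embryo at 20 hpf, and the next highest late embryo had 46.2 CPM. Without that embryo the log2 fold change was 0.66 (adjusted p = 0.317 with edgeR), and the call was also lost without any 1 embryo of 13 hpf, replicate 2 or 3 of 14 hpf or replicate 4 of 20 hpf.

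Neighbouring identifiers, which mark neighbouring models on a scaffold of the assembly, showed few shared peaks. Of the models numbered directly beside the 150 and not among them, 164 reached 5 CPM in some window, and 7 of these (4.27%, 95% Wilson interval 2.08–8.55%) were highest at 6.5–8 hpf, beside 2.84% of all 9508 other models at that level. At 20 CPM in some window it was 6 of 105 (5.71%), beside 2.58% of 5998. Both shares were above those of the other models, but they rest on 7 and 6 models. Only 1 pair of the 150 had consecutive identifiers. ML356011a had 4.98–5.78 CPM at 1–3 hpf, 1 count at 4 hpf and 146.7 CPM at 6 hpf, and stood at 100, 130, 121 and 69.3 CPM in the window. ML356012a was present throughout, with 41.6–92.9 CPM at 1–3 hpf and 249, 203, 180 and 202 CPM in the window, and it stayed at 216 and 231 CPM at 8.5 and 9 hpf.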

How the data were processed

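CEL-Seq reads of single embryos were counted per ML2.2 protein model by the authors; the deposited values are whole-number counts, not normalized. Per the labels, CASAVA 1.8, Bowtie2 2.1.0 and HTSeq 0.5.4p3 were used and the primers carried unique molecular identifiers; collapsing of these and the genome build: not given in the sources used here. Intervals and floors cover counting error only. Counted reads made up 10.2–33.8% of an embryo's reads. The 5 classes of reads not counted (0.74–4.54% ambiguous, 7.86–24.0% of low quality, 45.6–80.5% not aligned, none without a feature or with several alignments) were kept out of totals and tests.

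The embryo at 0 hpf and 1 each at 5.5, 15 and 19 hpf were under 200000 counts and left out. Tests used edgeR 4.0.16 (TMM factors, quasi-likelihood F-test with 1 coefficient per window, at least 50 counts over the 46 embryos, adjusted p under 0.05); all 150 models passed this filter. On simulated counts for 11264 models, 4-fold changes were recovered in 50% of cases for 4–6 against 1–3 hpf, 26% for 11–12 against 8.5–10 hpf and 88% for 18–20 against 13–14 hpf, and 2-fold changes in 4%, 1% and 45%. Alternatives used DESeq2 1.42.0, limma 3.58.1 and R 4.3.3; other scripts used Python 3.11.15, pandas 2.3.3, numpy 2.4.6, scipy 1.17.1 and matplotlib 3.10.9.

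Models, lists, windows and library groups were chosen with earlier results of these data known. Named models are the 10 highest, the 8 with the largest share, the 3 on either side of the edge, up to 2 in each direction per test, members of the study's lists and the pair with consecutive identifiers. The labels number no replicates and do not say which embryos were siblings, so p-values measure spread between embryos only. In the main fit this spread was estimated over all 46 embryos, most of them late. For the early windows the p-values therefore do not measure the spread of the compared embryos alone. None of the model identifiers matched the reference gene table (0 matched), and no sequence was used.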

Additional observations from a re-analysis of the deposited data

Results flagged for a closer look

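The choice of the 150 models did not use the embryos under 200000 counts, and 3 of them held enough counts for a summed level. The embryo at 5.5 hpf stood at 23758 CPM, between the embryos at 5 and 6 hpf. An embryo at 15 hpf stood at 8275 CPM, below all 11 embryos used at 15–17 hpf (10326–12784 CPM), from only 18731 counts. An embryo at 19 hpf stood at 10482 CPM, within the range of the 11 embryos used at 18–20 hpf (9993–12818 CPM). These levels were looked at because they lie outside the data of the comparisons and above what a count of 0 allows.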

How the results depend on the processing

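Leaving out 1 of the 4 window embryos kept 96–112 of the 150 (96 without the embryo at 7 hpf), and using the first library group alone kept 97. The other alternatives kept 100–150, among them 103 with TMM-scaled and 104 with RLE-scaled CPM. Under all 14 alternatives 25 models were chosen, and 47 under all 4 that leave out an embryo, including 24 of the 34 with a share of at least 25%. The number of the 150 called at 4–6 against 1–3 hpf was 39–54 in the other settings and 37–57 when an embryo was left out (37 without 3 hpf or 6 hpf), all of them rises; over all models there were 614–1055 and 514–878 calls. At 11–12 against 8.5–10 hpf the 1 call became 0 with RLE factors, with only the 2 windows and with the first group alone, 2 with library size or with the group as a term, 3 with limma voom, 6 with DESeq2 (not ML202616a), and 0–3 without 1 embryo; over all models the 180 calls became 342 with DESeq2, 42 with only the 2 windows, 53 with the first group alone and 45–209 without 1 embryo. At 18–20 against 13–14 hpf the 9 calls became 14 with DESeq2, 5 with only the 2 windows, 0 with the first group alone (2 over all models) and 6–11 without 1 embryo; with the second group alone, added after the data were seen, there were 10. The causes were not tested, but the first group alone leaves 1 embryo in each late window, whose spread is taken from the earlier windows. There ML015751a turned to a log2 fold change of 0.30 (adjusted p = 0.944). Over all models, rises and falls split 302 to 152 with TMM and 374 to 111 with RLE factors in that comparison. ML007330a lost its call with the second group alone (0.57) and with the group as a term (0.89). No paired analysis was possible because the labels number no replicates and do not say what the running number of each embryo marks.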
